A study of Rattus norvegicus with 20 samples.

Results

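The soleus is a slow postural muscle of the lower leg that is innervated through the sciatic nerve. Its microRNAs (miRNAs) were compared after entrapment of the sciatic nerve and after denervation, with no sham-operated array in the comparison. The 6 arrays were chosen from the sample labels as the 3 soleus arrays of sciatic nerve entrapment for 6 months and the 3 soleus arrays of sciatic nerve denervation for 6 months, out of 20 arrays in the series. All animals were adult male Sprague-Dawley rats operated on the right side. In the denervation group, the nerve was cut, a segment was removed and the proximal stump was tied and moved into thigh muscle, with the aim of preventing regrowth. In the entrapment group, a silastic tube that did not constrict the nerve was placed around it and the nerve stayed in continuity. The Methods assign tissue from 3 rats of each group to the arrays, and the labels call the arrays experimental replicates. In the decompression group, the tube was removed after 6 months and the muscle taken 3 months later. Its 3 soleus arrays also entered the fit, which made 9 arrays. They were not part of the contrast, but helped to set the spread, the scaling, the floor and the detection filter.

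A miRNA is cut from an RNA hairpin that has a strand on either arm. One strand is usually loaded into the Argonaute protein and kept, and the other, which older names mark with a star, is usually degraded. The kept strand pairs with messenger RNAs mainly through its seed, bases 2 to 8, and lowers their translation or stability. Skeletal muscle is dominated by a few miRNAs, of which miR-1, miR-133a, miR-133b, miR-206 and miR-499 are made in muscle cells, and miR-499 is encoded within a slow myosin gene. Denervated muscle loses mass and gains connective tissue. The arrays were of whole muscle, in which fewer cells of a type and less RNA per cell cannot be told apart.

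The results turned on 3 hairpins whose strand balance differed between both injuries, for miR-338 with a star strand detected only after denervation. The mature sequences of their strands are shown with the seed in capitals, as RefSeq gives them for the rat genome build GRCr8. The older unmarked and starred names of the array were paired with current strand names from general knowledge of miRNA naming. The strands of a hairpin have different seeds and are therefore distinct probes and distinct regulators.
miR-126: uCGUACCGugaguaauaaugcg
miR-126*: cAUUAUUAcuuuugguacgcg
miR-29a: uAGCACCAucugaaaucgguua
miR-29a*: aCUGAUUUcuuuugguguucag
miR-338: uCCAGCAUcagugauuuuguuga
miR-338*: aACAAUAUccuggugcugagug

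In GRCr8, miR-126 lies at chr3:29813219-29813240 and miR-126* at chr3:29813182-29813202, both on the plus strand within the span of Egfl7, a gene of endothelial cells. The miR-29a strand lies at chr4:60617968-60617989 and miR-29a* at chr4:60618006-60618027, on the minus strand. The miR-338 strand lies at chr10:105796345-105796367 and miR-338* at chr10:105796381-105796402, on the minus strand within the span of Aatk, a kinase gene of nervous tissue. The gene table used gives spans and not exons, so exon and intron were not assigned.

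A second set is shown because it holds 3 of the miRNAs whose difference was past the threshold in most processing choices (miR-664, miR-760-5p and miR-487b), together with the other members of the miR-29 family.
miR-664: uAUUCAUUuacuccccagccua
miR-760-5p: cCCCUCAGgccaccagagcccg
miR-487b: aAUCGUACagggucauccacuu
miR-29b: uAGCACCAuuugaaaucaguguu
miR-29c: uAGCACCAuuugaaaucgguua

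The miR-29 members share 1 seed, and miR-29a and miR-29c differ at 1 position of 22, so a probe may not separate them fully. Of the 13 miRNAs that passed the threshold, 12 had a sequence in the table, and these 12 had 12 different seeds.

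The scanner signal of each miRNA was divided by the 75th percentile of its array, taken over the 113 miRNAs detected on all 9 arrays, and multiplied by 100, and is given as the scaled signal. Signals under 0.252 scaled units were set to that floor before log2. Of 348 miRNAs, 164 were detected on at least 3 of the 9 arrays and were tested with limma. The denervation arrays detected 137 to 194 miRNAs and the entrapment arrays 134 to 168. The unscaled percentile ranged from 408 to 2512 after denervation and from 721 to 1698 after entrapment. Denervation replicate 3 stood apart from the other 2 denervation arrays, with correlations over the tested miRNAs of 0.891 and 0.898 against 0.982 between replicates 1 and 2. The entrapment arrays correlated at 0.969 to 0.987. Denervation replicates 1 and 2 came in files laid out differently from those of the other soleus injury arrays. Among the control features, 12 and 15 signals of at least 20 on these arrays equalled a signal on another soleus array. Such equal signals numbered 8 on denervation replicate 3 and 1 to 8 on the entrapment arrays, and no miRNA signal of at least 20 was shared. All 7 negative control features were higher after entrapment than after denervation, with no overlap between arrays. Fits with file layout as a block, without single arrays and without replicates 1 and 2 are given beside the results they changed. The part of the control signals in the results was not tested.

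The clearest difference was in the balance of strands. The star strand was a smaller share of its partner after entrapment for miR-126, miR-29a and miR-338. These 3 of the 23 pairs tested (13.0%) passed the threshold, miR-338 with entrapment values set by the floor. A single scaling factor per array cancels in such a ratio where both strands are above the floor. Quantile normalization, the floor and a background added to the signal do not cancel. The difference lay below 0 for 14 ratios and above 0 for 9. With no overlap between groups, 8 ratios were lower after entrapment and miR-1*/miR-1 was higher. In that last pair, miR-1* was under the floor on denervation replicates 1 and 2.

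For miR-29a, a miRNA known for repressing collagens, the star strand was at 1.13%, 0.794% and 0.901% of miR-29a after denervation and at 0.141%, 0.142% and 0.164% after entrapment. All entrapment arrays lay far under all denervation arrays. The means were 0.942% ± 0.172 and 0.149% ± 0.0128 (SD, n = 3 each). The log2 ratio fell by 2.65 (SE 0.26), which is 6.28-fold lower (limma adjusted p = 0.00017). Both strands contributed, since the star strand was lower and its partner higher on every entrapment array. The scaled signal of miR-29a* was 2.24, 2.01 and 2.01 after denervation and 0.61, 0.50 and 0.74 after entrapment. That of miR-29a was 198, 253 and 223 after denervation and 431, 353 and 450 after entrapment. Before scaling, miR-29a* was at 31.8, 50.5 and 8.19 after denervation and at 10.3, 7.61 and 5.31 after entrapment. The median named negative control probe was at -7.50, -3.91 and 2.77 after denervation and at 13.3, 10.5 and 12.6 after entrapment. On every entrapment array miR-29a* thus lay under that median, although it was called detected. The part of background in this ratio was not tested.

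For miR-126, the endothelial miRNA, miR-126* was at 9.84%, 8.28% and 7.83% of miR-126 after denervation and at 3.40%, 3.70% and 3.47% after entrapment. The spread within either group was small beside the gap. The log2 ratio fell by 1.29 (SE 0.17), 2.45-fold lower (limma adjusted p = 0.00051). The miR-126 strand itself was at 101, 100 and 129 after denervation and at 100, 150 and 158 after entrapment, which overlapped, and did not pass (log2 difference 0.29, SE 0.28, limma adjusted p = 0.60). The miR-126* strand was at 9.91, 8.28 and 10.13 after denervation and at 3.40, 5.56 and 5.48 after entrapment, without overlap, and on its own lay just outside the threshold (log2 difference -1.002, SE 0.27, limma adjusted p = 0.0541).

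For miR-338, a miRNA of neurons and glia, the star strand was at 14.9%, 13.4% and 8.63% of miR-338 after denervation. It was detected on none of the entrapment arrays, so the values of 2.27%, 1.22% and 1.85% there were set by the floor and are not measured levels. The fitted log2 ratio fell by 2.80 (SE 0.31, limma adjusted p = 0.00024) and depends on the floor. The star strand met the detection filter only through the denervation arrays, where it was high, so this p-value is no separate support. The scaled signal of miR-338 was 4.28, 5.90 and 15.3 after denervation and 11.1, 20.6 and 13.7 after entrapment, with overlap at denervation replicate 3.

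**Figure D1:**
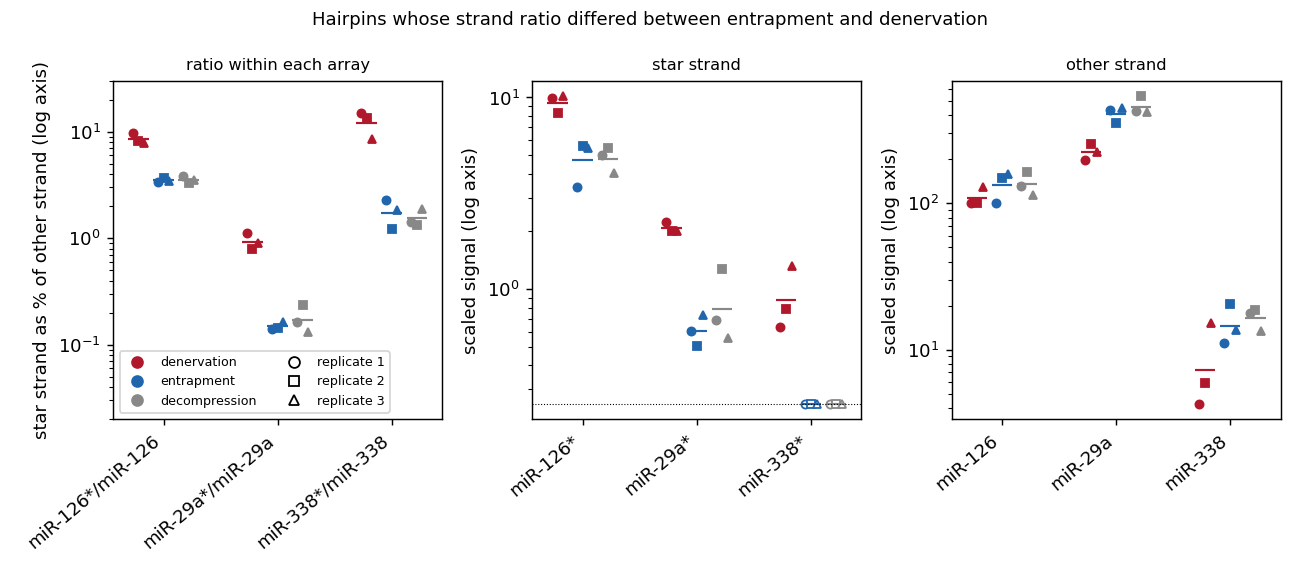
Left, signal of the star strand as a percentage of the other strand of the same hairpin on each soleus array (log axis). Middle and right, scaled signal of the star strand and of the other strand (log axis). Points are arrays, bars are geometric means, and open points on the dotted line are at the floor. The denervation arrays lie above the entrapment arrays in all 3 ratios, for miR-29a at 0.794% to 1.13% against 0.141% to 0.164%.

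On the 3 decompression arrays the ratio was 3.31% to 3.82% for miR-126, 0.132% to 0.236% for miR-29a and 1.35% to 1.88% for miR-338, the last again at the floor. These values are given side by side, since the decompression arrays also enter the estimate of the spread. The ratios of miR-126 and miR-29a each passed in 25 of 26 alternative settings. The exceptions were quantile normalization for miR-126 (limma adjusted p = 0.139) and the processed values for miR-29a (limma adjusted p = 0.0502). The ratio of miR-338 passed in 20 of the 21 settings that could test it, and not with the processed values (limma adjusted p = 0.132). In these settings too miR-338* was detected on denervation arrays only, so the passes are no separate support. The number of ratios past the threshold was 2 without denervation replicate 2 and 9 without denervation replicate 3. The pair miR-338*/miR-338 could not be tested when any denervation array was left out, because miR-338* was then detected on too few arrays.

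Among the other pairs, miR-1*/miR-1 was at 0.0036%, 0.0054% and 0.0139% after denervation and at 0.0361%, 0.0197% and 0.0295% after entrapment. On denervation replicates 1 and 2, miR-1* was under the floor (scaled signal 0.193 and 0.134), so the values there are not measured levels. The pair did not pass (log2 difference 2.09, SE 0.65, limma adjusted p = 0.0701). The ratio miR-29c*/miR-29c was at 5.55% to 8.70% after denervation and 3.36% to 4.97% after entrapment, without overlap, and did not pass either (log2 difference -0.67, SE 0.24, limma adjusted p = 0.102). When star strands that carry a hairpin number were also paired, a step added after the values had been seen, miR-30c-2*/miR-30c was at 0.549% to 0.890% after denervation and 1.49% to 1.89% after entrapment (log2 difference 1.36, SE 0.22, limma adjusted p = 0.00198 over 26 pairs). The other pairs so added, miR-30c-1*/miR-30c and miR-24-2*/miR-24, lay below 0 and did not pass (log2 differences -0.43 and -0.19, limma adjusted p = 0.68 and 0.61). Mature miR-30c has the same sequence in the hairpins Mir30c1 and Mir30c2, so its ratios are not the strand balance of a single hairpin. miR-30c itself had a log2 difference of -1.16.

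Of the 164 miRNAs tested, 13 (7.93%) were lower after entrapment than after denervation at a limma adjusted p under 0.05, and 0 (0%) were higher. At an unadjusted p under 0.05, 31 were lower and 5 higher. The groups did not overlap for 34 miRNAs (20.7%) that were lower and 15 (9.15%) that were higher after entrapment. The median log2 difference over all miRNAs tested was -0.11, with 94 below 0 and 70 above. The number of calls depended on the scaling of the arrays. It was 5 lower and 14 higher with the percentile over all miRNAs, 5 lower and 4 higher after quantile normalization, 5 lower and 1 higher with the median, and 0 in either direction without scaling. These scalings moved the median log2 difference to 0.36, 0.28, 0.10 and -0.03, respectively. All 13 miRNAs stayed below 0 in every alternative that tested them.

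**Figure D2:**
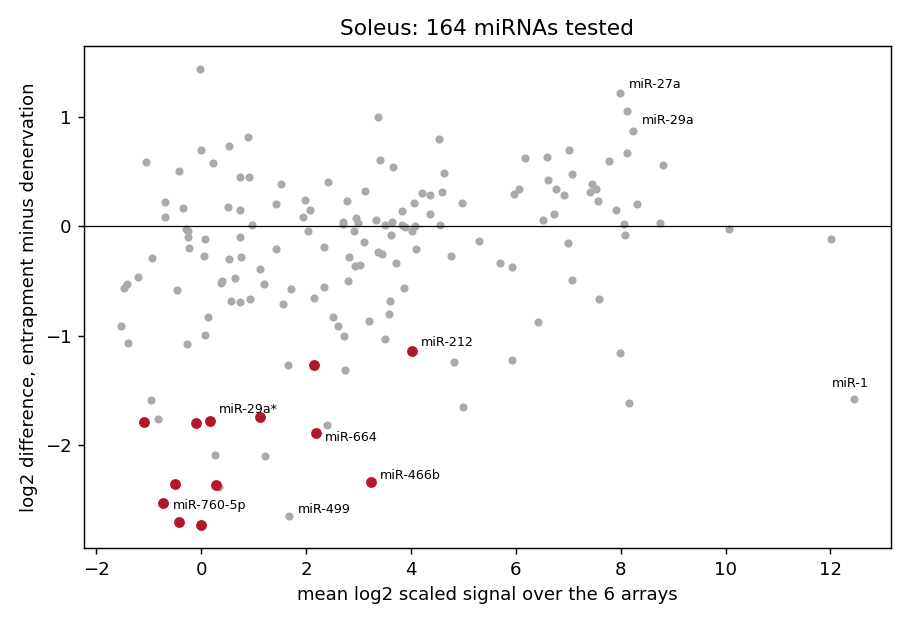
Log2 difference of the scaled signal, entrapment minus denervation, against the mean log2 scaled signal over the 6 arrays for the 164 miRNAs tested, 1 point per miRNA. Red points are the 13 miRNAs with a limma adjusted p under 0.05. All of them lie below 0 and toward the left of the plot, while bright miRNAs such as miR-29a (0.87) and miR-27a (1.22) lie above 0.

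Of the 13 miRNAs, 7 were detected on all 6 arrays, and 11 had a mean scaled signal under 10 in both groups. These 7 were also detected on all 9 arrays of the fit, as were 113 of the 164 miRNAs tested. None of the 33 miRNAs with a mean of at least 100 in either group passed. Of these 33, 21 lay above 0, against 70 of 164 over all miRNAs tested. With no overlap, 7 were higher (against 9.15%) and 2 lower (against 20.7%) after entrapment. The share of miRNAs under 10 among all those tested was not counted, so the 11 do not show whether the calls were unusually dim. The part of signal level in the calls was not tested.

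miR-664 gave the steadiest call. Its scaled signal was 9.06, 9.72 and 7.74 after denervation and 2.43, 1.92 and 2.85 after entrapment, detected on every array. The means were 8.84 ± 1.01 and 2.40 ± 0.468 (SD, n = 3 each), and the log2 difference was -1.89 (SE 0.28, limma adjusted p = 0.0066). It passed in 23 of 25 alternatives, all but no scaling and the unscaled processed values.

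miR-760-5p was at 0.98, 2.14 and 1.49 after denervation and was detected on none of the entrapment or decompression arrays. It was at least 4.61-fold lower after entrapment (limma adjusted p = 0.0021), measured against the lowest signal of a detected miRNA on each array. miR-338* was at 0.64, 0.79 and 1.32 after denervation, was likewise detected on no entrapment array, and was at least 2.75-fold lower (limma adjusted p = 0.0088). Both bounds rest on signals near the detection limit. Both miRNAs met the detection filter only through the denervation arrays, where they were high, so their p-values are no separate support. miR-350 was also detected on the 3 denervation arrays and on no entrapment array, at 0.90, 0.61 and 2.08 after denervation, at least 3.27-fold lower, and did not pass (limma adjusted p = 0.24).

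miR-29a* was lower in every entrapment array than in every denervation array (log2 difference -1.78, SE 0.33, limma adjusted p = 0.0185) and passed in 18 of 25 alternatives. miR-125b* was at 1.15, 3.49 and 1.02 after denervation and at 0.47, 0.10 and 0.21 after entrapment (log2 difference -2.36, SE 0.47, limma adjusted p = 0.0248). Feature Extraction called it detected on only 2 of the denervation and 1 of the entrapment arrays, and it passed in 11 of 20 alternatives.

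Both called members of the Dlk1-Dio3 locus, an imprinted cluster of many miRNAs, were lower after entrapment. miR-487b was at 3.42, 2.56 and 7.29 after denervation and at 1.19, 1.13 and 1.27 after entrapment (log2 difference -1.74, SE 0.37, limma adjusted p = 0.0297). miR-539 was at 1.79, 1.77 and 6.78 after denervation and at 0.70, 0.49 and 0.45 after entrapment (log2 difference -2.37, SE 0.61, limma adjusted p = 0.0452). In both, denervation replicate 3 was the highest array by a wide margin, and the groups did not overlap. miR-487b passed in 13 of 25 alternatives and miR-539 in 5 of 24. Of the 37 members of the locus on the array, 12 were tested, 2 were called lower (against 7.93% of all miRNAs tested) and 0 higher, and 9 lay below 0 (against 94 of 164), with a median log2 difference of -0.63 against -0.11 over all miRNAs. miR-494, the brightest tested member, was at 24.7, 98.5 and 73.0 after denervation and at 19.7, 17.9 and 16.2 after entrapment and lay just outside the threshold (limma adjusted p = 0.0558). miR-136 and miR-434 had log2 differences of 0.15 and -0.71 and did not pass (limma adjusted p = 0.91 and 0.35).

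miR-212, which is induced by neuronal activity and is a brain-enriched miRNA, was among the brighter calls. It was at 17.9, 26.2 and 29.6 after denervation and at 9.62, 9.62 and 13.9 after entrapment (log2 difference -1.14, SE 0.28, limma adjusted p = 0.0408). The groups did not overlap, and it passed in 8 of 25 alternatives. Of the 10 neuronal and glial miRNAs, miR-9, miR-9*, miR-124, miR-132 and miR-138 were too rarely detected to be tested, and miR-212 was the 1 of the 5 tested that was called, against 7.93% of all miRNAs tested. The summed signal of that list was 49.2 to 55.8 after denervation and 41.2 to 46.6 after entrapment.

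miR-145, a miRNA of smooth muscle cells, was at 5.20, 6.67 and 9.502 after denervation and at 2.48, 3.02 and 3.17 after entrapment (log2 difference -1.26, SE 0.31, limma adjusted p = 0.0408). The groups lay apart by more than the range of the entrapment arrays, and the call passed in 6 of 25 alternatives. miR-143, which is transcribed together with miR-145, was at 95.1, 110 and 142 after denervation and at 134, 171 and 176 after entrapment and did not pass (log2 difference 0.48, limma adjusted p = 0.31). Of the 5 vascular miRNAs tested, miR-145 was the 1 called (against 7.93% of all miRNAs tested), and the summed signal of the list was 212 to 292 after denervation and 240 to 343 after entrapment.

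miR-466b was at 11.6, 14.0 and 59.8 after denervation and at 4.05, 3.85 and 4.74 after entrapment (log2 difference -2.34, SE 0.58, limma adjusted p = 0.0408). All denervation arrays lay above all entrapment arrays, and replicate 3 was by far the highest. The call passed in 8 of 25 alternatives. The remaining calls were miR-139-5p, miR-339-3p and miR-125a-3p, at 1.15 to 3.44, 1.28 to 3.01 and 0.95 to 6.87 after denervation and at 0.17 to 0.37, 0.45 to 0.60 and 0.26 to 0.72 after entrapment. Their log2 differences were -2.70 (SE 0.63), -1.79 (SE 0.43) and -2.74 (SE 0.66), each with a limma adjusted p of 0.0408. Before scaling, all 3 lay under the median named negative control probe on every entrapment array. For miR-339-3p, detected on all of them, the signals were 10.2, 7.09 and 3.22 against 13.3, 10.5 and 12.6. The part of background in these calls was not tested. The groups of all 3 did not overlap in scaled signal, and they passed in 7, 9 and 4 of 23, 25 and 23 alternatives. miR-139-5p and miR-125a-3p were detected on 1 entrapment array each, and miR-139-5p on only 2 denervation arrays. Both met the detection filter only with the denervation arrays, where they were high, so their p-values are no separate support. Before scaling, denervation replicate 3 lay below entrapment replicate 1 for both (miR-139-5p 4.71 against 6.33, miR-125a-3p 10.5 against 12.3). The 0.17 of miR-139-5p was under the floor.

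**Figure D3:**
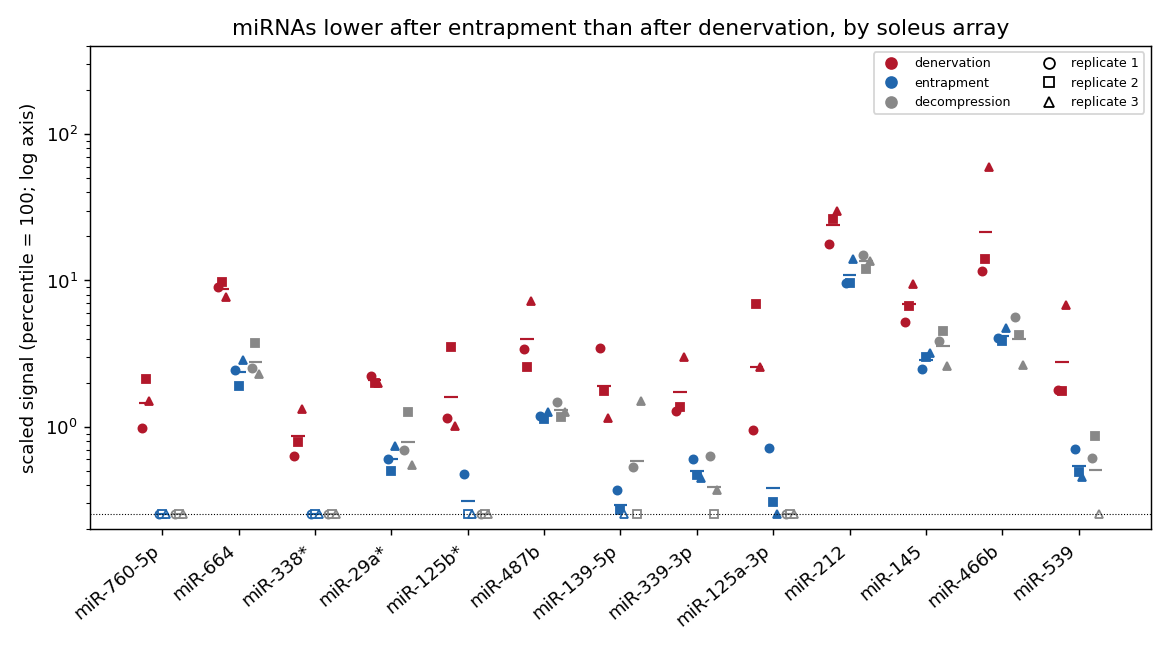
Scaled signal (log axis) of the 13 miRNAs lower after entrapment on each soleus array, with the decompression arrays beside them. Points are arrays, bars are geometric means after flooring, and open points on the dotted line are at the floor of 0.252. The highest denervation array is replicate 3 for 7 of the 13, replicate 2 for 4 and replicate 1 for 2, and no entrapment array reaches a denervation array.

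Leaving out 1 array at a time gave between 2 and 10 miRNAs lower and between 0 and 4 higher after entrapment. It left 2 lower without denervation replicate 2 or without entrapment replicate 2, 4 without entrapment replicate 1 or 3, and 6 and 7 without decompression replicates 3 and 1. Without denervation replicate 3, 10 were lower and 4 higher, namely miR-29a, miR-338, let-7b* and miR-296*. With file layout as a block, the contrast set the entrapment arrays against denervation replicate 3 alone, the only denervation array in their layout. All 13 calls stayed below 0 in it, but miR-29a*, miR-125b*, miR-139-5p and miR-125a-3p no longer passed. Leaving out denervation replicates 1 and 2 also left that single array, and the 8 calls that could still be tested lay below 0.

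Several bright miRNAs were higher on every entrapment array than on any denervation array, without passing the threshold. The miR-29 family, which is known for repressing collagens and other matrix genes, was among these. miR-29a had a mean of 225 ± 27.8 after denervation and 412 ± 51.3 after entrapment (SD, n = 3 each) and lay just outside the threshold (log2 difference 0.87, SE 0.24, limma adjusted p = 0.0541). miR-29b was at 129, 219 and 256 after denervation and at 569, 275 and 413 after entrapment (log2 difference 1.05, SE 0.38, limma adjusted p = 0.15). miR-29c was at 252, 238 and 181 after denervation and at 341, 307 and 416 after entrapment (log2 difference 0.67, SE 0.25, limma adjusted p = 0.16). The difference lay between 0.71 and 1.35 for miR-29a, 0.49 and 1.53 for miR-29b and 0.43 and 1.15 for miR-29c over all settings, other scalings included, and miR-29a passed in 7 of 25 alternatives. Of the 9 fibroblast and matrix miRNAs, 0 were called, 8 lay above 0 (against 70 of 164 over all miRNAs tested) and 3 were higher with no overlap (against 9.15%), with a median log2 difference of 0.33 against -0.11. The other non-overlapping bright miRNAs included miR-27a at 108, 138 and 312 after denervation and 463, 342 and 366 after entrapment (log2 difference 1.22, SE 0.51, limma adjusted p = 0.20). miR-27b, which differs from miR-27a at 1 position, was at 100, 87.6 and 119 and at 148, 163 and 183 (log2 difference 0.70, SE 0.30, limma adjusted p = 0.21). miR-193 was at 15.4 to 21.6 after denervation and 24.5 to 39.7 after entrapment (log2 difference 0.80, limma adjusted p = 0.24).

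The labelled tissue was borne out by its defining miRNAs, whose summed scaled signal was 9370 to 33426 of 17220 to 40299 for all tested miRNAs after denervation, and 5575 to 11311 of 13882 to 20310 after entrapment. None of the 5 muscle-specific miRNAs tested passed, and 4 lay below 0, with a median log2 difference of -1.58. The muscle pairs miR-1 and miR-206, and miR-133a and miR-133b, share a seed and differ at 3 positions and at 1 position. Their sequences are shown because probes for so close a pair may share signal.
miR-1: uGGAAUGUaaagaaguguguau
miR-206: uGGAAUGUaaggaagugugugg
miR-133a: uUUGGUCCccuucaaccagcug
miR-133b: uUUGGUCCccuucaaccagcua

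The scaled signal of miR-1 was 6920, 4661 and 27879 after denervation and 1955, 3450 and 4979 after entrapment (log2 difference -1.58, SE 0.63, limma adjusted p = 0.18). The high mean after denervation came from replicate 3, and the groups overlapped at denervation replicate 2. Before scaling, miR-1 was at 98538, 117065 and 113754 after denervation and at 33194, 52243 and 35895 after entrapment, with no overlap. miR-133a was at 349, 254 and 1442 after denervation and at 114, 171 and 228 after entrapment, without overlap (log2 difference -1.62, SE 0.59, limma adjusted p = 0.16). miR-133b, by contrast, was at 3157 to 5839 after denervation and at 2681 to 5736 after entrapment (log2 difference -0.12, limma adjusted p = 0.92), with a sign that turned with the scaling, and after quantile normalization it was called higher after entrapment (log2 difference 0.66). miR-206, the miRNA of regenerating and newly innervated fibres, was at 252, 218 and 918 after denervation and at 825, 538 and 367 after entrapment (log2 difference 0.56, SE 0.82, limma adjusted p = 0.76). miR-208, the heart member of the list, was detected on no array.

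The miR-499 strand was at 2.98, 5.51 and 30.8 after denervation and at 0.51, 2.69 and 1.501 after entrapment (log2 difference -2.65, SE 1.45, limma adjusted p = 0.30). Its direction depended on which deposited values were read. In the table of processed values, brought to the scanner's scale, miR-499 was at 12.6 in place of 126 in denervation replicate 3, and at 85.8, 407 and 108 in place of 8.58, 40.7 and 10.8 on the entrapment arrays. The log2 difference from that table was 2.00. For miR-1 the same table held 52444 in place of 113754 in denervation replicate 3, and 27010 and 19950 in place of 52243 and 35895 in entrapment replicates 2 and 3. Such differences of more than 1% affected 16 values on these 6 arrays, also of miR-17-3p, miR-133a, miR-139-3p, miR-329 and miR-466b. The study names miR-139-3p and miR-329 for soleus, and both overlapped between groups in the scanner values (log2 differences -2.10 and -0.83, limma adjusted p = 0.22 and 0.35), as did miR-204 (0.39, limma adjusted p = 0.76). Of the 8 miRNAs that the study's text names for soleus, miR-466b was the 1 called, against 7.93% of all miRNAs tested. The study measured miR-206 as a muscle-specific miRNA and chose the others on these samples. Its longer supplementary list of soleus miRNAs, which includes miR-212, was not used as a list here.

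**Figure D4:**
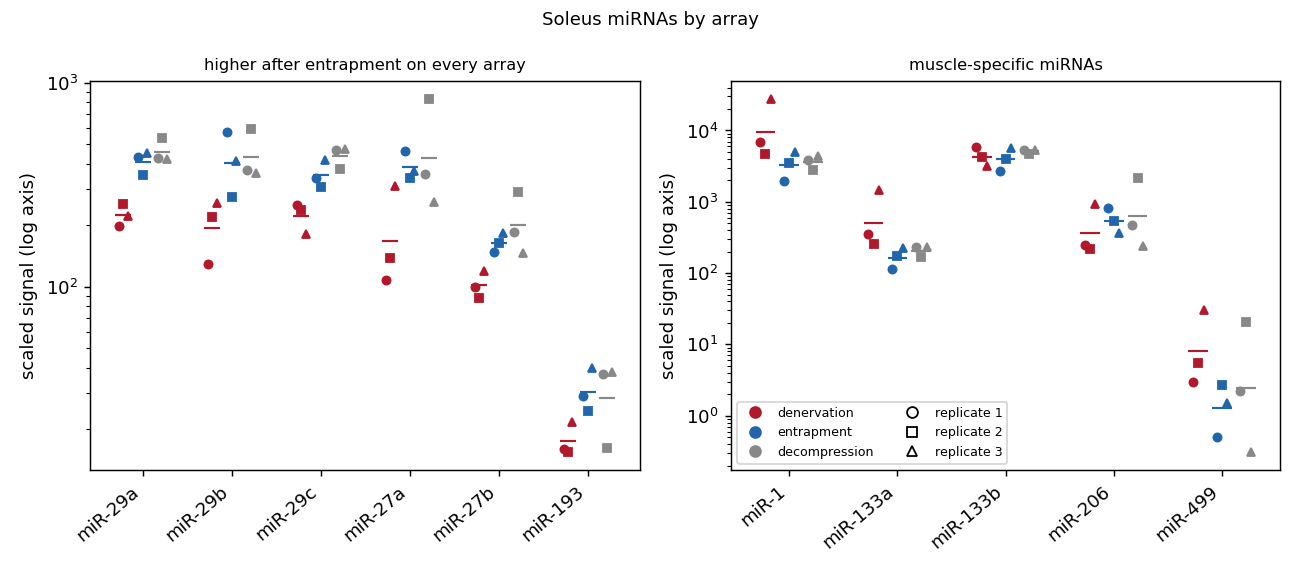
Scaled signal (log axis) on each soleus array. Left, 6 miRNAs that were higher on all entrapment arrays than on any denervation array, such as miR-29a at 353 to 450 against 198 to 253. Right, the 5 muscle-specific miRNAs tested, in which denervation replicate 3 is the highest array for miR-1, miR-133a and miR-499. Bars are geometric means.

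Markers of blood cells did not pass the threshold. All 5 leukocyte miRNAs tested lay below 0, with a median log2 difference of -0.57. None was called and 3 were lower with no overlap (against 20.7% of all miRNAs tested), and miR-155 was not matched on the array. Their summed signal was 58.2 to 93.7 after denervation and 44.0 to 53.6 after entrapment. miR-223, of granulocytes and macrophages, was at 14.9, 23.9 and 12.2 after denervation and at 8.80, 6.38 and 9.16 after entrapment (log2 difference -1.03, SE 0.30, limma adjusted p = 0.0728). miR-150, of lymphocytes, was at 16.5 to 18.9 and at 9.13 to 13.9 (log2 difference -0.57, limma adjusted p = 0.22), and miR-142-3p overlapped (-0.21, limma adjusted p = 0.81). The summed signal of the red blood cell miRNAs, miR-144 and miR-451, ranged from 21.4 to 220.3 after denervation and from 46.4 to 79.9 after entrapment, with log2 differences of 0.08 and -0.37. The part of blood cells in the other results was not tested.

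The other lists held no call. The 5 tested members of the miR-30 family had a median log2 difference of -0.87, where miR-30c was at 539, 379 and 265 after denervation and at 96.5, 201 and 250 after entrapment (log2 difference -1.16, limma adjusted p = 0.14), while miR-30a and miR-30e were at 0.03 and 0.12. The 8 members of let-7 and miR-98 had a median of 0.11, with let-7a, let-7c and let-7f at 0.15, 0.32 and -0.07. The miR-15 and miR-16 family had a median of 0.34, with miR-16, miR-195 and miR-497 at 0.39, 0.63 and 0.34. The miR-17 to miR-92 clusters had a median of -0.08, with miR-106b, miR-19b and miR-25 at 0.54, -0.08 and 0.03. The 10 tested regulators of myogenesis and muscle mass had a median of 0.17, with miR-23a and miR-26a at 0.20 and 0.03. miR-128 and miR-338, of the neuronal and glial list, had log2 differences of -0.04 and 1.01. miR-672, one of the largest differences without overlap, was at 4.94, 5.08 and 38.1 after denervation and at 2.33, 2.65 and 3.55 after entrapment and did not pass (log2 difference -1.82, SE 0.74, limma adjusted p = 0.19).

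The spread was larger after denervation. The median SD of the log2 scaled signal was 0.49 over the 3 denervation arrays and 0.31 over the 3 entrapment arrays, and 110 of the 164 miRNAs had the larger SD after denervation. Denervation replicate 3 lay more than 1 log2 unit from the mean of replicates 1 and 2 for 53 miRNAs, whereas replicates 1 and 2 lay that far apart for 13.

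**Figure D5:**
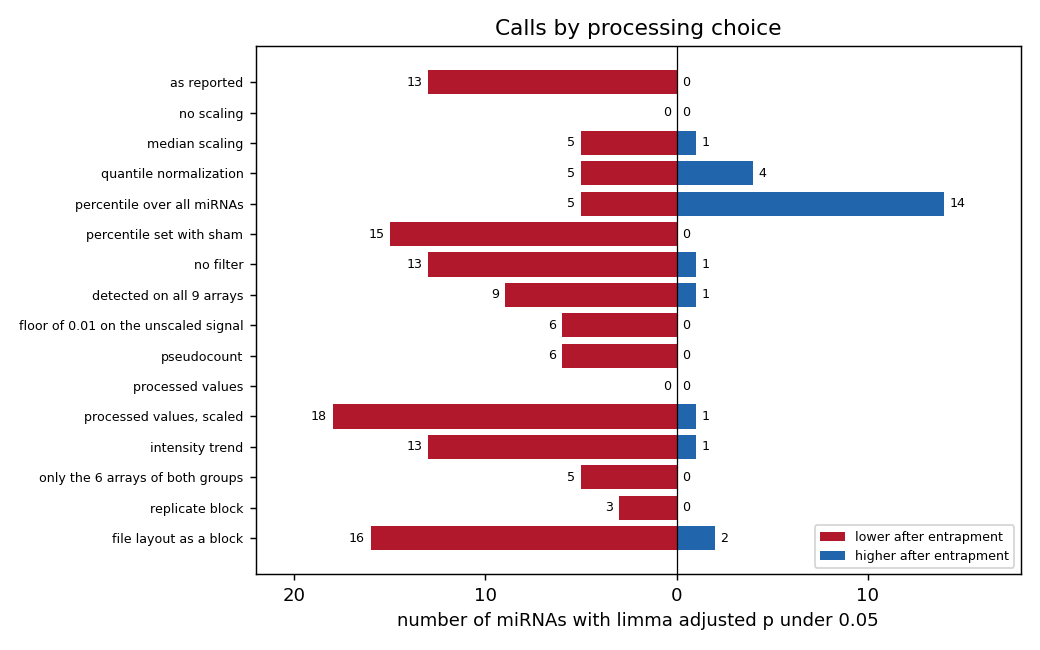
Number of miRNAs with a limma adjusted p under 0.05, lower (left) and higher (right) after entrapment than after denervation, under each processing choice for the arrays. The reported setting gives 13 lower and 0 higher, and the processed values after scaling give 18 and 1. The percentile over all miRNAs gives 5 and 14, and no scaling and the unscaled processed values give 0 and 0. With file layout as a block, the denervation side rests on replicate 3 alone.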

How the data were processed

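Total RNA of soleus muscle was labelled with Cy3 and hybridised to single-colour Agilent rat miRNA arrays. The labels and the Methods give different labelling reactions. The authors deposited, per array, scanner files from Agilent Feature Extraction 9.5.3 (per the submitters' processing notes) with a total gene signal for each miRNA (a linear intensity, background-subtracted and not normalized) and a table of processed signals. The Methods name a rank-consistency LOWESS step and GeneSpring, without settings. The processed signals equal the scanner intensity divided by 1 constant per array apart from single values. The array number limits the precision. Slide and scan batches could not be tested from these files.

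Groups were taken from the labels. Of 350 miRNAs, 348 carry 1 name in every file and 2 were left out. Signals were scaled to the 75th percentile over 113 miRNAs, floored at 0.252 and put on the log2 scale. Tests were two-sided in limma 3.58.1 (R 4.3.3) over 9 arrays with 6 residual degrees of freedom and Benjamini-Hochberg adjustment over 164 miRNAs, or over 23 strand pairs (X with X*, X-5p with X-3p). The script was tested on simulated data. Python 3.11.15 with matplotlib 3.10.9 gave the plots. "At least" folds set the bright group's mean against, per array, the higher of the lowest detected signal and the miRNA's own. The miRNAs named are all calls, those detected in 1 group only, muscle-specific and study-named miRNAs, the 3 brightest of each other list, the 5 largest non-overlapping differences in each direction and the called strand pairs. Other names, such as miR-296* and miR-30c-2*, were chosen after their values were seen. The groups, lists and tests were chosen with earlier results of these data known. If the 3 animals per group in the Methods are not the arrays' replicates, p-values measure technical spread only.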

Additional observations from a re-analysis of the deposited data

How the results depend on the processing

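The count of ratios past the threshold was 3 as reported, 6 without scaling or without the detection filter, 8 with file layout as a block, 7 without the 2 denervation arrays of another layout, 1 with the processed values, and 2 to 9 when single arrays were left out. The miRNAs lower and higher after entrapment were 13 and 0 as reported. They were 0 lower without scaling, where 16 lower and 1 higher had an unadjusted p under 0.05, and 0 lower with the processed values, where 8 and 0 had. They were 5 and 1 with the median, 5 and 4 after quantile normalization, 5 and 14 with the percentile over all miRNAs, 6 and 0 with the smaller floor or with a pseudocount, and 5 and 0 with only the 6 arrays of both groups. Higher calls numbered 1 without the filter, with miRNAs detected on all 9 arrays, with the processed values scaled and with an intensity trend. Leaving out 1 array gave 2 to 10 lower and 0 to 4 higher. Same-numbered arrays did not deviate together (correlations -0.046, 0.025 and -0.0051). With 3 arrays per group, this does not settle whether the numbers pair the arrays. The replicate block gave 3 lower and 0 higher and the same number of strand ratios, 3. The cause of these changes was not tested, beyond the fewer arrays or miRNAs that some of them hold. The settings with processed values scaled, without the 2 arrays, and for the strand ratios under other scalings were added after the data had been seen.

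Log2 differences that changed sign were of miRNAs with no call in the reported setting, and miR-133b was called higher after quantile normalization. With file layout as a block these were miR-133b 0.32, miR-206 -0.75, miR-204 -0.93, miR-23a -0.020, miR-451 1.49, miR-142-3p 0.13, miR-128 0.62, miR-338 -0.067, let-7f 0.30, miR-19b 0.047 and miR-136 -0.43. Without the 2 denervation arrays of another layout these were miR-133b 0.17, miR-206 -0.90, miR-204 -1.09, miR-23a -0.17, miR-126 -0.11, miR-451 1.33, miR-128 0.46, miR-338 -0.22, let-7f 0.15, miR-30e -0.013, miR-497 -0.029 and miR-136 -0.58. With median scaling they were miR-133b 0.094, miR-142-3p 0.0024, miR-128 0.17, let-7f 0.14 and miR-19b 0.13. Without scaling they were miR-128 0.070, let-7f 0.041 and miR-19b 0.037. With the percentile over all miRNAs they were miR-133b 0.36, miR-451 0.11, miR-142-3p 0.27, miR-128 0.43, let-7f 0.41 and miR-19b 0.40, and with the sham array in the percentile set miR-26a -0.0041, miR-30a -0.00725 and miR-25 -0.00336. With the processed values they were miR-133b 0.10, miR-499 2.00, miR-142-3p 0.00995, miR-128 0.17, let-7f 0.14 and miR-19b 0.14, and with these values scaled miR-499 1.78. After quantile normalization they were miR-133b 0.66, miR-26a -0.060, miR-23a -0.079, miR-128 0.27, let-7a -0.052, miR-30a -0.092 and miR-19b 0.28. Leaving out 1 array gave ranges of -0.41 to 0.16 for miR-133b, -0.13 to 1.07 for miR-204, -0.35 to 0.20 for miR-128, -0.24 to 0.089 for let-7f, -1.27 to 0.40 for miR-451, -0.38 to 0.11 for miR-142-3p, -0.21 to 0.45 for miR-136, -0.055 to 0.13 for miR-26a, -0.76 to 0.78 for miR-144, -0.25 to 0.39 for miR-30a, -0.22 to 0.24 for miR-25 and -0.16 to 0.60 for miR-30e.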
